A study of Mus musculus with 33 samples.

Results

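The genes described here are the 42 components of the DNA replication machinery, taken by symbol from a table of RNA levels in mouse fibroblasts that were being reprogrammed to pluripotency. All 42 symbols were found among the 37973 genes of the table, and all 42 passed the filter on low values in each comparison. The members were chosen by function, with earlier results of these data known. They lie on 14 chromosomes and fall into 8 roles: 6 subunits of the MCM helicase, 9 genes of helicase loading and licensing, 5 of helicase activation, 8 of the DNA polymerases, 6 of the clamp and clamp loader, 3 of single-strand binding, 2 of lagging strand maturation and 3 of dNTP synthesis.

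Every cell copies its genome once per division, and it does so in an ordered series of steps. The origin recognition complex (Orc1 to Orc6) marks the sites where copying can start, and Cdc6 and Cdt1 help it to load the ring-shaped MCM helicase (Mcm2 to Mcm7), while geminin (Gmnn) holds Cdt1 back so that no site fires again in the same cycle. Mcm10 and the GINS complex (Gins1 to Gins4) help to switch the loaded helicase on. Polymerase alpha with its primase lays down primers, polymerase epsilon copies the leading strand and polymerase delta the lagging strand, both held to DNA by the sliding clamp Pcna, which the RFC complex (Rfc1 to Rfc5) loads. The RPA trimer (Rpa1 to Rpa3) covers exposed single strands, Fen1 and Lig1 trim and seal lagging strand fragments, and Tyms, Rrm1 and Rrm2 help to supply the building blocks. Many of these genes are switched on by E2F factors before S phase. Pluripotent cells divide fast with a short G1 phase, whereas fibroblasts in culture slow down and may stop.

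PolyA RNA was sequenced from primary embryonic fibroblasts, isolated from embryos at 14 to 15 days post coitum, that carried doxycycline-inducible Oct4, Sox2, Klf4 and Myc (OSKM, a tetO cassette at Col1a1). In both OSKM arms the cells were Col1a1-OSKM+/-; Rosa26-rtTA+/-; Oct4-GFP+/-, had been transduced with lentivirus, and received doxycycline at 1 µg/ml. One arm overexpressed Dppa2 and Dppa4 (Dppa2/4 below), a pair of small nuclear proteins found in pluripotent cells and the germline, and the other was a control overexpression whose vector is not given in the sources used here. A further pair of libraries, titled rtTA-MEF, came from cells of the same arms, doxycycline and medium that were Rosa26-rtTA+/-; Oct4-GFP+/- and lacked the OSKM cassette, so they show lentivirus and doxycycline without reprogramming factors. Fibroblasts carry Thy1 on their surface and give it up early in reprogramming, SSEA1 is a sugar antigen of pluripotent cells that appears next, and Oct4-GFP is a reporter of late stages. Thy1+SSEA1- libraries used here were of days 2, 4, 8 and 14. For day 11 Thy1+SSEA1- cells a control sample had no column and a column named Dppa2/4 had no sample, so neither was used. Thy1-SSEA1- libraries were of days 2, 4, 8 and 11, with a day 14 library in the Dppa2/4 arm alone. Thy1-SSEA1+ libraries were of days 8, 11 and 14. GFP+ cells came from days 11 and 14, with day 8 in the Dppa2/4 arm alone, and Thy1+SSEA1+ cells from days 2 and 4 in the Dppa2/4 arm alone. This gave 17 Dppa2/4 and 13 control libraries of OSKM cells, with the 2 rtTA-MEF libraries beside them.

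There was 1 library for each combination of arm, day and gate. The spread thus comes from the 13 combinations of day and gate present in both arms, called strata. The p-values measure the spread between these libraries. Several gates share an arm and day, so the strata may not be independent. The p-values do not cover a repeat of the transduction. Depth is not stated, and the smallest step of the FPKM values implied 21.5 to 43.1 M fragments in OSKM libraries, with 13.8 M for the Dppa2/4 and 16.2 M for the control rtTA-MEF library. Dppa2 stood at 43.2 to 612 FPKM in the Dppa2/4 OSKM libraries but 1, and at 0.149 to 66.1 FPKM in control ones, highest in GFP+ cells. The exception, labelled Dppa2/4 day 4 Thy1+SSEA1-, had 0.354 FPKM of Dppa2 and 0.409 FPKM of Dppa4, against 0.319 and 0.141 FPKM in its control. In GFP+ cells the level of Dppa2 did not separate the arms, at 61.5 and 54.0 FPKM on days 11 and 14 in Dppa2/4 libraries, against 66.1 and 45.4 FPKM in control ones. The day 4 Thy1+SSEA1- library goes against its label, and the counts of members called in the comparisons that hold it are also given without it. Calls of named genes outside the members in those comparisons are given with it alone. The description of the control day 11 GFP+ library names another gate. It is taken by its title here and dropped in an alternative, and its Nanog, a marker of pluripotent cells, stood at 323 FPKM, within the 260 to 360 FPKM of the other GFP+ libraries. Thy1 stood at 195 to 749 FPKM in Thy1+SSEA1- and 4.71 to 9.77 FPKM in GFP+ libraries. In Thy1-SSEA1- libraries it stood at 230 FPKM in the Dppa2/4 and 164 FPKM in the control arm on day 2. Later Thy1-SSEA1- libraries had 39.5 to 77.8 FPKM. In sorted bulk samples, fewer replicating cells and less of each RNA per cell cannot be told apart.

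The level of the machinery differed between gates, which overlapped. As the mean of log2(FPKM + 1) over the 42 genes, GFP+ libraries stood at 6.28, 6.11 and 6.01 on days 8, 11 and 14 in the Dppa2/4 arm, against 6.30 and 6.21 on days 11 and 14 in the control arm. Thy1-SSEA1+ libraries stood at 5.73, 4.90 and 5.07 on days 8, 11 and 14 in the Dppa2/4 arm, against 6.11, 5.92 and 5.66 in the control arm, so the control day 8 value lay within the range of the GFP+ libraries. The Dppa2/4 library was the lower on each matched day, while the ranges of the arms overlapped across days. The Thy1+SSEA1+ libraries of the Dppa2/4 arm had 5.48 and 5.61, close to the 5.59 and 5.58 of the Dppa2/4 and control rtTA-MEF libraries. Levels in Thy1-SSEA1- libraries ran from 4.15 to 5.19, and those in Thy1+SSEA1- libraries from 4.03 to 5.54, and these ranges overlapped.

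**Figure D1:**
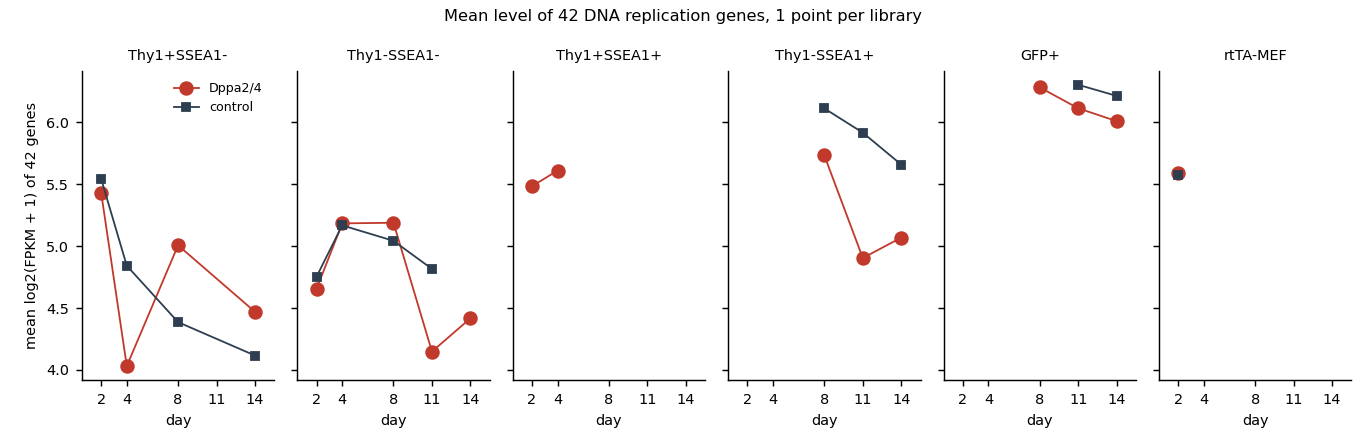
Mean log2(FPKM + 1) of the 42 replication genes (vertical axis) by day (horizontal axis) in each gate, with 1 point per library, Dppa2/4 as circles and control as squares. The 5 GFP+ libraries sit between 6.01 and 6.30, the control Thy1+SSEA1- libraries are lower on each later day, and the Dppa2/4 Thy1-SSEA1+ libraries sit below control on each matched day.

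Single members differed widely in level and in range. Pcna (median 206.5 FPKM over 32 libraries), the ribonucleotide reductase subunit Rrm2 (162 FPKM), the helicase subunit Mcm7 (157 FPKM) and the large reductase subunit Rrm1 (107 FPKM) were the most abundant per length. The GINS subunit Gins3 (4.57 FPKM), the polymerase epsilon subunit Pole2 (9.58 FPKM) and the origin-binding subunit Orc1 (10.0 FPKM) were the least abundant. Between its lowest and highest library Orc1 differed 47.8-fold, the catalytic subunit of polymerase delta, Pold1, 24.7-fold, the activation factor Mcm10 20.8-fold, Gins1 20.1-fold and Mcm5 18.7-fold. The narrowest ranges were those of Orc3 (2.53-fold), Gins4 (2.79-fold), the clamp loader subunit Rfc3 (2.99-fold), the RPA subunit Rpa3 (3.31-fold) and Rrm1 (3.44-fold), and Orc4 had 3.87-fold. Exons of 7 members overlap another gene on the opposite strand by at least 10%, namely Fen1, Gins2 (67.3%), Orc2 (29.8%), Rfc2 (15.1%), Rfc4 (12.7%), Orc1 (10.8%) and Rfc5 (10.7%), and pseudogenes named after Pcna and Tyms exist, so their levels may hold reads of these neighbours or copies. The lowest value of any member in any library was 1.135 FPKM, for Orc1 in control day 14 Thy1+SSEA1- cells.

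Most members moved together across the 32 libraries. As a description over libraries that share days, gates and arms, Pearson's r of a gene with the mean of the other 41 members was 0.979 for Mcm3, 0.978 for Rpa1, 0.974 for Mcm10, 0.973 for both Mcm2 and Rpa2 and 0.972 for Gins1, and Mcm3 and Rpa1 thus tracked the group most closely. It was 0.201 for Orc3, 0.134 for Rrm1 and -0.08 for Orc4, the members that moved least with the others. Pola1, the catalytic subunit of polymerase alpha, had 0.612, and its highest values were 113 FPKM in Dppa2/4 day 2 Thy1+SSEA1+ and 96.2 FPKM in Dppa2/4 day 2 Thy1+SSEA1- cells, against 47.9 FPKM in control day 2 Thy1+SSEA1- cells.

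Dppa2/4 and control OSKM libraries were compared first, matched for day and gate, over 13 strata and 26 libraries. Of the 42 members, 7 fell and 1 rose at an adjusted p below 0.05 (limma with the stratum as a block, Benjamini-Hochberg over all 16835 genes tested), and 36 of 42 estimates were negative. Among all genes tested, 7.75% were called lower, 15.6% higher and 23.4% in either direction, against 16.7% of the members called lower and 2.38% called higher. The order of the lower shares was the reverse without the library that goes against its label, at 7.14% of members beside 8.9% of all genes, and with quantile normalization, at 4.76% beside 12.5%. The median change of the members was -0.24 on the log2(FPKM + 1) scale, with a range of -0.62 to 0.43, beside a median of 0.03 over all genes tested. The 8 that passed were Pole2, Fen1, Pold2, Tyms, Mcm7, Mcm3 and Mcm5, all lower, and Orc4, higher. Both arms overlapped in every member, and 0.00594% of all genes had arms that did not overlap.

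**Figure D2:**
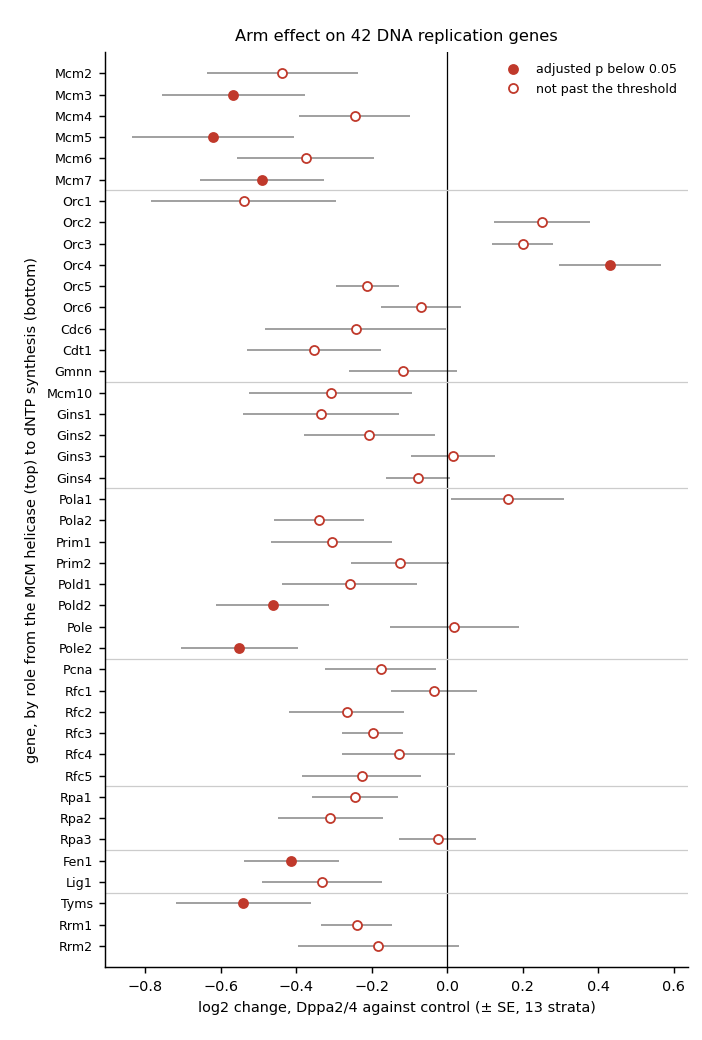
Change of each of the 42 genes, Dppa2/4 against control, on the log2(FPKM + 1) scale with its standard error over 13 strata; filled points have an adjusted p below 0.05. The MCM subunits Mcm3, Mcm5 and Mcm7 lie between -0.62 and -0.49, and Orc4 is the sole filled point to the right of 0, at 0.43.

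Promoters are shown for the 4 members with the largest absolute moderated t in this comparison among those with a listed promoter. The windows are those of RefSeq on GRCm38.p6, from 250 bases before to 50 bases after the start, read 5′ to 3′ on the gene's strand, here the minus strand in each case. Pole2 lies at chr12:69228141-69228440, Fen1 at chr19:10204344-10204643 (the first of 2 windows listed), Orc4 at chr2:48950032-48950331 (the first of 3) and Pold2 at chr11:5878207-5878506 (the first of 2). Capitals mark matches to an E2F-type motif (TTTCCCGC, TTTCGCGC, TTTGCCGC or TTTGGCGC, on either strand) or to a CCAAT box (CCAAT, on either strand).
Pole2: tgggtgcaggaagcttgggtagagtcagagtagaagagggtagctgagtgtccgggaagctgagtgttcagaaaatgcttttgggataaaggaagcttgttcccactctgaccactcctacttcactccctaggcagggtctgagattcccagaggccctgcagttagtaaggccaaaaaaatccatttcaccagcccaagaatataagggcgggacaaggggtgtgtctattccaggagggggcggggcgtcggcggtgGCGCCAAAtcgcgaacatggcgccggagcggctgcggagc
Fen1: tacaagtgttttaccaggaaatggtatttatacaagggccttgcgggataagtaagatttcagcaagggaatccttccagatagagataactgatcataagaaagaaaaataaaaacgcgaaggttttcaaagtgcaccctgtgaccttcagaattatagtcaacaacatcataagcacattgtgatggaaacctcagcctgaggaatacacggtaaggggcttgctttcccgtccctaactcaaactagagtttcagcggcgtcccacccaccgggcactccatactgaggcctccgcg
Orc4: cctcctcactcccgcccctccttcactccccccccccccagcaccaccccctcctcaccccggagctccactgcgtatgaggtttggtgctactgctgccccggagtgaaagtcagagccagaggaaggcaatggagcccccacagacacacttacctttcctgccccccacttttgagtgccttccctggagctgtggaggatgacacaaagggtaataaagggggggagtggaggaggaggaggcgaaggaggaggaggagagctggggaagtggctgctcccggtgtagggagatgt
Pold2: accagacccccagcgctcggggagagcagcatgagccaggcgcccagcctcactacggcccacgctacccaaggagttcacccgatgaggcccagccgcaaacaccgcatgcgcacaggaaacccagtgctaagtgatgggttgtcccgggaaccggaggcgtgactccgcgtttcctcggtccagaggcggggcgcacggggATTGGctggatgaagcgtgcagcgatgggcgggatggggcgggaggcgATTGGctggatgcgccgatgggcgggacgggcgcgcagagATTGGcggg
The Pole2 window held 1 E2F-type match, with its first base at position 11 counted from 1 at the start, and no CCAAT box. The Pold2 window held 3 CCAAT boxes, at positions -47, 2 and 42, and no E2F-type match, and the printed Fen1 and Orc4 windows held neither motif. A promoter was listed for 34 of the 42 members, and Gins1, Gins2, Gins4, Gmnn, Mcm4, Pole, Prim2 and Rfc2 had no entry. Of those 34, 14 held an E2F-type match (41.2%), against 2.6% of the 27025 genes with a promoter and 2.26% of all 32851 windows: Mcm3, Mcm5, Mcm6, Mcm7, Orc1, Orc3, Cdc6, Cdt1, Gins3, Pola1, Pold1, Pole2, Rfc3 and Lig1. A CCAAT box was in 22 of the 34 (64.7%), against 41.1% of genes and 37.4% of windows. These are matches of letters only.

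Among the MCM helicase subunits 3 of 6 fell and none rose, with a median change of -0.46. Mcm5 had 8.51, 34.7 and 115.8 FPKM as lowest, median and highest of 13 Dppa2/4 libraries, against 13.7, 57.2 and 159 FPKM in control libraries, and it was lower in 10 of 13 strata (-0.62 ± 0.21 SE, adjusted p 0.0494). For Mcm3 the Dppa2/4 libraries had 10.7, 40.9 and 134.9 FPKM, against 16.8, 56.0 and 179 FPKM in control libraries, lower in 11 of 13 strata (-0.57 ± 0.19 SE, adjusted p 0.044). The ranges overlap widely, as both arms span Thy1+SSEA1- to GFP+ cells, and the test compares libraries of the same day and gate. Mcm7 had 44.6, 131.7 and 375 FPKM, against 68.1, 160.4 and 469.7 FPKM in control libraries, lower in 10 of 13 strata (-0.49 ± 0.16 SE, adjusted p 0.0434). Mcm2 (-0.44), Mcm6 (-0.37) and Mcm4 (-0.25) did not pass, although each was lower in 10 of 13 strata.

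In helicase loading and licensing 1 of 9 rose and none fell, and Orc4 was that gene. It had 46.7, 60.8 and 143 FPKM as lowest, median and highest in Dppa2/4 libraries, against 36.9, 52.3 and 67.0 FPKM in control libraries (0.43 ± 0.14 SE, adjusted p 0.034). The difference was widest from day 11 on. On day 11 Orc4 stood at 143 against 54.1 FPKM in Thy1-SSEA1- cells, at 82.9 against 48.0 FPKM in Thy1-SSEA1+ cells and at 75.8 against 44.5 FPKM in GFP+ cells, with the Dppa2/4 library the higher each time. On day 14 it stood at 110 against 52.3 FPKM in Thy1-SSEA1+ cells and at 107 against 57.4 FPKM in GFP+ cells. The Dppa2/4 library was the higher in 10 of 13 strata and the lower in day 4 Thy1+SSEA1-, day 4 Thy1-SSEA1- and day 8 Thy1-SSEA1+ cells. The sister subunits Orc2 (0.25, adjusted p 0.167) and Orc3 (0.20, adjusted p 0.0874) had positive estimates that did not pass with all strata, and Orc1 (-0.54, adjusted p 0.121), Orc5 (-0.21, adjusted p 0.0824) and Orc6 (-0.07, adjusted p 0.668) had negative ones. Cdt1 (-0.35), Cdc6 (-0.24) and Gmnn (-0.12) did not pass. After a correction for GC content, which differed between libraries, the Orc4 change was 0.24 (adjusted p 0.033), and with median ratio scaling it was 0.38 and did not pass (adjusted p 0.062).

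None of the 5 activation genes passed, with a median of -0.21: the values were -0.33 for Gins1, -0.31 for Mcm10, -0.21 for Gins2, -0.08 for Gins4 and 0.02 for Gins3, whose sign turned under each of 3 other scalings. Of the 8 polymerase genes 2 fell, with a median of -0.28. Pole2, the second subunit of polymerase epsilon, had 2.73, 8.32 and 26.7 FPKM in Dppa2/4 libraries, against 3.08, 13.2 and 28.9 FPKM in control libraries, lower in 12 of 13 strata (-0.55 ± 0.16 SE, adjusted p 0.0207). The exception was day 8 Thy1+SSEA1-, with 7.74 against 4.76 FPKM. Pold2, the second subunit of polymerase delta, had 16.5, 50.1 and 109 FPKM in Dppa2/4 libraries, against 31.1, 55.9 and 179.6 FPKM in control libraries, lower in 11 of 13 strata (-0.46 ± 0.15 SE, adjusted p 0.037). The catalytic subunits Pole (0.02, adjusted p 0.955) and Pold1 (-0.26, adjusted p 0.312) did not pass, nor did the alpha subunits Pola1 (0.16) and Pola2 (-0.34, adjusted p 0.0543) or the primase genes Prim1 (-0.31) and Prim2 (-0.13).

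No clamp or clamp loader gene passed (6 genes, median -0.19, from -0.27 for Rfc2 to -0.03 for Rfc1, with -0.18 for Pcna), and no RPA gene (-0.31 for Rpa2, -0.24 for Rpa1, -0.02 for Rpa3). The flap nuclease Fen1 fell, with 7.43, 18.2 and 36.3 FPKM in Dppa2/4 libraries, against 10.3, 24.8 and 47.9 FPKM in control libraries, lower in 10 of 13 strata (-0.41 ± 0.13 SE, adjusted p 0.0296). An antisense gene, Gm10143, overlaps 78.8% of the Fen1 exons, and reads of the pair could not be told apart without a stated strand setting. The ligase Lig1 did not pass (-0.33, adjusted p 0.142). Thymidylate synthase, Tyms, which makes dTMP, fell too: its lowest, median and highest values were 19.3, 70.1 and 106.6 FPKM in Dppa2/4 libraries, against 31.7, 81.1 and 133 FPKM in control libraries (-0.54 ± 0.18 SE, adjusted p 0.0414, lower in 10 of 13 strata). The reductase genes Rrm1 (-0.24, adjusted p 0.0777) and Rrm2 (-0.18, adjusted p 0.569) did not pass.

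**Figure D3:**
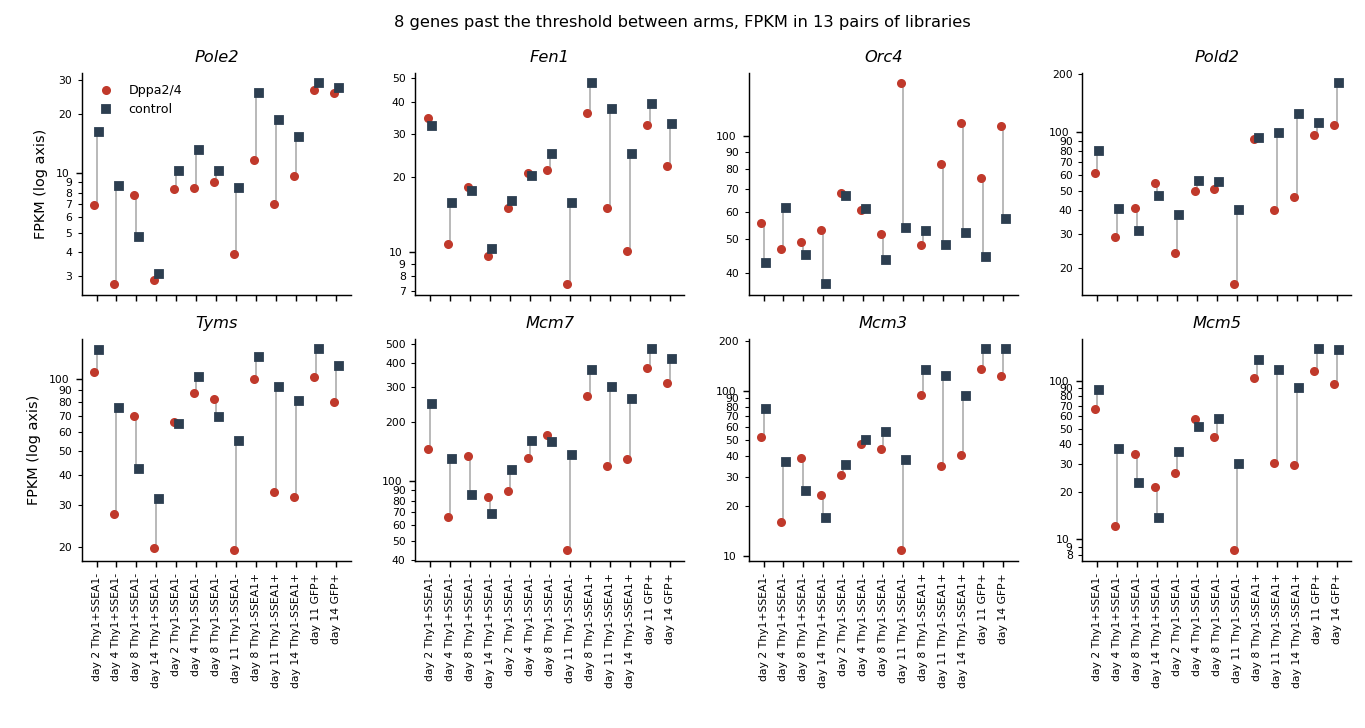
FPKM on a log axis of the 8 genes past the threshold, in each of the 13 strata, with Dppa2/4 as circles left of control as squares and a line joining the pair. Orc4 lies above control from day 11 on, at 143 against 54.1 FPKM in day 11 Thy1-SSEA1- cells, while the others lie below control in all 5 Thy1-SSEA1+ and GFP+ strata.

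With all libraries, 5 of 34 further replication genes fell and 1 rose, with a median of -0.21. Of all genes tested 7.75% were called lower and 15.6% higher. Those lower were Timeless, of the fork protection complex (-0.60, adjusted p 0.0149), the chromatin assembly subunit Chaf1b (-0.57, adjusted p 0.0325), thymidine kinase Tk1 (-0.54, adjusted p 0.0497), the RNase H2 subunit Rnaseh2b (-0.51, adjusted p 0.00208, lower in 13 of 13 strata) and Chtf8, of an alternative clamp loader (-0.43, adjusted p 0.0126). The gene that rose was Donson, a replisome factor (0.43, adjusted p 0.0126). Of 12 E2F and S phase regulators, the kinase Cdk2 (-0.41, adjusted p 0.00692) and the factor E2f3 (-0.25, adjusted p 0.0483) fell and the pocket protein Rbl2 rose (0.50, adjusted p 0.0189), with a median of 0.01. None of 6 proliferation markers passed (median -0.15), and their summed level ran from 139 to 774 FPKM in Dppa2/4 and from 206 to 771 FPKM in control libraries, with none at 0. Of the other marker lists, 5 of 6 epithelial genes rose, 3 of 10 fibroblast genes fell, 1 of 8 pluripotency genes and 3 of 4 immune genes that were tested rose, and of 3 endothelial genes that were tested 1 rose and 1 fell. Their part in the result was not tested.

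Among the members called, all but Pole2 lost their call when some single stratum was left out. Pole2 passed in each of the 13 fits without 1 stratum and did not pass with no block of day and gate (adjusted p 0.42). With the library labelled Dppa2/4 day 4 Thy1+SSEA1- left out, 3 members were lower, Pole2 (-0.48, adjusted p 0.035), Fen1 (-0.40, adjusted p 0.043) and Pold2 (-0.46, adjusted p 0.049), Orc4 was higher (0.50, adjusted p 0.014), and Mcm7, Mcm3, Tyms and Mcm5 had adjusted p of 0.071 to 0.083. Of all genes in that fit 8.9% were lower and 16.2% higher, so the 3 of 42 members were not above the background. Leaving out 1 stratum gave 1 lower member without day 11 Thy1-SSEA1-, day 11 Thy1-SSEA1+, day 14 Thy1-SSEA1+ or day 14 GFP+ cells, 2 without day 2 Thy1+SSEA1-, 3 without day 4 Thy1+SSEA1-, day 8 Thy1-SSEA1+ or day 11 GFP+, and 11 without day 8 Thy1+SSEA1-. Without day 8 Thy1-SSEA1+ cells 3 members were also higher, since Orc2 (0.34, adjusted p 0.034) and Orc3 (0.24, adjusted p 0.047) passed beside Orc4. Orc4 did not pass without day 14 Thy1+SSEA1-, day 11 Thy1-SSEA1- or any 1 of the day 11 and day 14 Thy1-SSEA1+ and GFP+ strata, with changes of 0.35 to 0.42 and adjusted p of 0.0587 to 0.07. The split of lower to higher calls was 2 to 1 with quantile normalization, 10 to 0 with median ratio scaling and 11 to 1 with the GC correction.

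Stratum by stratum, the members did not move one way. The mean difference over the 42 genes, Dppa2/4 minus control on the log2(FPKM + 1) scale, was -1.01 in day 11 Thy1-SSEA1+, -0.59 in day 14 Thy1-SSEA1+, -0.38 in day 8 Thy1-SSEA1+, -0.20 in day 14 GFP+ and -0.19 in day 11 GFP+ cells. In these 5 strata 40, 36, 39, 31 and 34 members were lower, and 26 members were lower in all 5. Among SSEA1- gates the difference was -0.81 in day 4 Thy1+SSEA1- cells, where all 42 were lower in the library that goes against its label, and -0.67 in day 11 Thy1-SSEA1- cells, where 36 were lower. It was 0.62 in day 8 Thy1+SSEA1- cells, where 41 members were higher and Orc1 lower, and 0.35 in day 14 Thy1+SSEA1- cells, where 34 were higher. On day 2 it was -0.11 in Thy1+SSEA1- and -0.10 in Thy1-SSEA1- cells, and it was 0.02 on day 4 and 0.15 on day 8 in Thy1-SSEA1- cells. No member was lower in all 13 strata, and 16 were lower in at least 10.

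**Figure D4:**
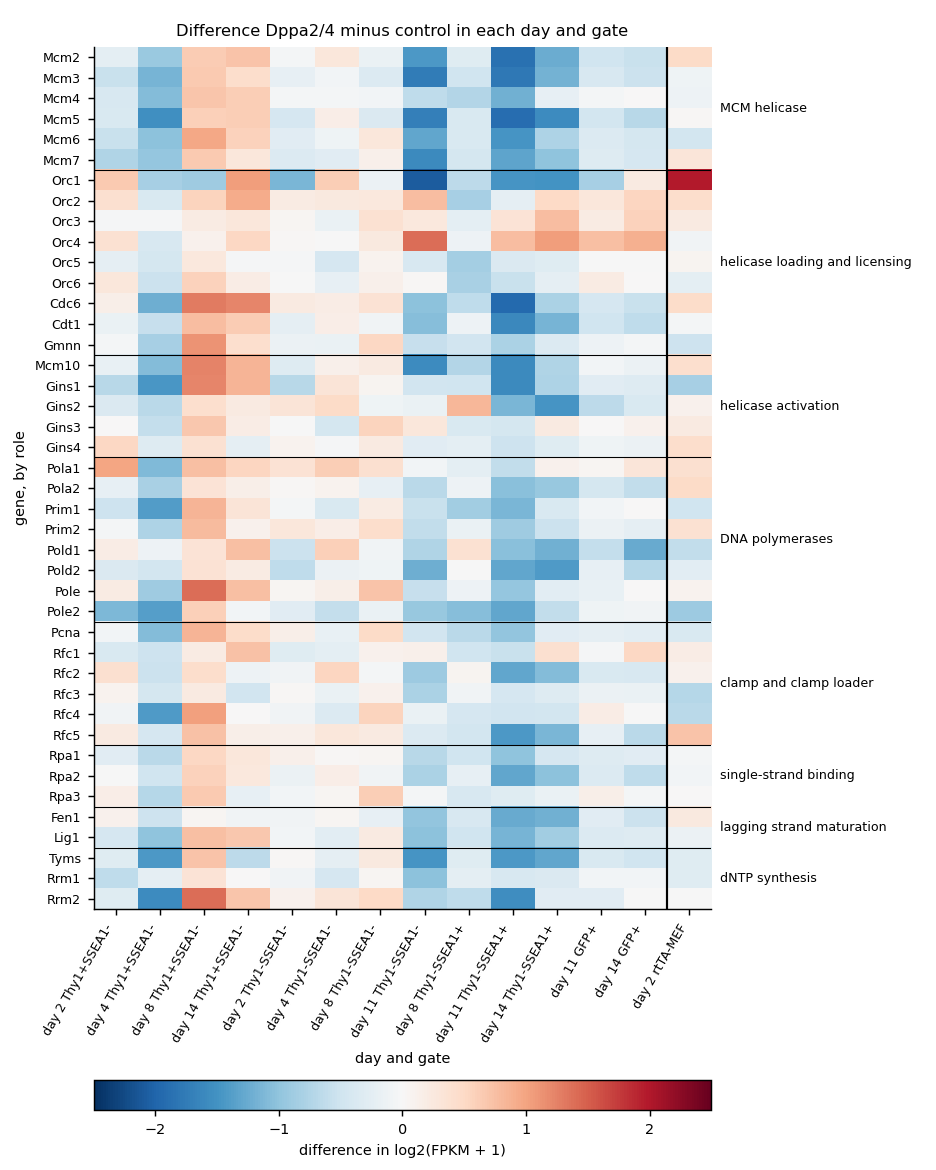
Difference in log2(FPKM + 1), Dppa2/4 minus control, of each of the 42 genes (vertical axis, by role) in each of the 13 strata and the rtTA-MEF pair (horizontal axis); red is higher and blue lower in Dppa2/4. The columns of day 8 and day 14 Thy1+SSEA1- are mostly red, those of the 5 Thy1-SSEA1+ and GFP+ strata mostly blue, and Orc4 is red from day 11 on.

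The largest of these differences can be read in single genes. In day 11 Thy1-SSEA1+ cells Mcm5 stood at 30.6 FPKM in the Dppa2/4 and 117 FPKM in the control library, Mcm3 at 34.8 and 123 FPKM, and Rfc5, a clamp loader subunit, at 47.8 and 131 FPKM. In day 8 Thy1+SSEA1- cells Mcm5 stood at 34.7 FPKM in the Dppa2/4 and 22.6 FPKM in the control library, Gins1 at 16.6 and 6.53 FPKM, and Gmnn at 45.1 and 20.1 FPKM. The summed proliferation markers differed in the same direction as the mean of the members in 11 of 13 strata: 434 FPKM in the Dppa2/4 and 206 FPKM in the control library of day 8 Thy1+SSEA1-, 139 and 376 FPKM in day 4 Thy1+SSEA1-, 499 and 669 FPKM in day 11 Thy1-SSEA1+, and 247 and 312 FPKM in day 11 Thy1-SSEA1-. The exceptions were day 4 Thy1-SSEA1- (409.5 and 410.4 FPKM) and day 11 GFP+ (774 and 769.7 FPKM), where the sums were nearly equal. Mki67, a marker in that sum, went against the members more often. It stood at 31.7 and 25.9 FPKM in day 11 Thy1-SSEA1- and 38.7 and 27.0 FPKM in day 14 Thy1-SSEA1+. In GFP+ cells it stood at 44.0 and 37.0 FPKM on day 11 and 31.7 and 18.9 FPKM on day 14. In day 4 Thy1-SSEA1- cells it was 34.6 and 37.1 FPKM, and in the other strata it went with the members. The summed pluripotency markers were lower in the Dppa2/4 library of each Thy1-SSEA1+ day, at 243 against 793 FPKM on day 8, 466 against 859 FPKM on day 11 and 899 against 1839 FPKM on day 14. The summed fibroblast markers of the same libraries were 252 against 194 FPKM on day 8, 764 against 362 FPKM on day 11 and 519 against 943 FPKM on day 14, so they were higher in the Dppa2/4 library on days 8 and 11 and lower on day 14. A measure of GC bias in each library, the deviation of GC-rich minus GC-poor genes on the log2 scale, was -0.77 in the Dppa2/4 library of day 11 Thy1-SSEA1-, the lowest of the 32, and -0.37 in its control. From day 11 on this measure was lower in the Dppa2/4 library of each other stratum too. It was -0.34 against -0.02 in day 11 and -0.42 against 0.42 in day 14 Thy1-SSEA1+ cells. In GFP+ cells it was -0.53 against -0.17 on day 11 and -0.24 against 0.29 on day 14. In day 14 Thy1+SSEA1- cells, where most members were higher, it was 0.58 against 0.67. Over all days the direction of its difference matched that of the members in 6 of 13 strata. The part of these measures in the differences was not tested.

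Whether the Dppa2/4 difference itself differed between gate classes was tested by an interaction of arm and class, for the 5 Thy1-SSEA1+ and GFP+ strata against the 8 SSEA1- strata. None of the 42 members passed and 7 had an unadjusted p below 0.05 (limma), while 1.02% of all genes were called in either direction, 0.511% higher and 0.505% lower. At the unadjusted threshold the members' share was 16.7%, beside 18.9% of all genes. The estimate was negative in 38 of 42, with a median of -0.43 beside 0.01 over all genes. The lowest p belonged to Rfc5 (-0.90 ± 0.23 SE, adjusted p 0.0717), followed by Rpa2 (-0.64, adjusted p 0.184) and Pold1 (-0.78, adjusted p 0.209). Rfc5 had 46.2, 93.4 and 163 FPKM as lowest, median and highest in the 5 Dppa2/4 Thy1-SSEA1+ and GFP+ libraries, against 103, 130.7 and 189 FPKM in control libraries, and 23.2, 40.4 and 83.9 FPKM in the 8 Dppa2/4 SSEA1- libraries, against 25.4, 33.6 and 71.5 FPKM in control libraries. It was lower in 5 of 5 strata of the first class and in 2 of 8 of the second. With the library labelled Dppa2/4 day 4 Thy1+SSEA1- left out, Rfc5 passed (-0.98, adjusted p 0.044), beside 0.972% of all genes called lower, and 17 members (40.5%) had an unadjusted p below 0.05, beside 21.4% of all genes. Of the regulators 1 of 12 passed, the retinoblastoma gene Rb1, a brake on E2F (1.18 ± 0.18 SE, adjusted p 0.0195). For days 8 to 14 against days 2 and 4 none of the members passed (limma, 0.0238% of all genes called in either direction and 0.0178% higher) and 3 had an unadjusted p below 0.05, Orc4 (0.62, adjusted p 0.213), Orc3 (0.36, adjusted p 0.231) and Rfc1 (0.48, adjusted p 0.256), which is 7.14% of members beside 19.1% of all genes. Without the library that goes against its label 0 members had an unadjusted p below 0.05, beside 16.5% of all genes, and the mean estimate over members was -0.15, against 0.04 with it.

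The gates were compared next, with arm and day as a block. This asks how the machinery differed between cells sorted as having kept Thy1, lost it, gained SSEA1 or turned on Oct4-GFP. On day 2 Thy1 RNA did not follow the sort in the Dppa2/4 arm, at 230 FPKM in Thy1-SSEA1- and 195 FPKM in Thy1+SSEA1- cells. In Thy1-SSEA1- against Thy1+SSEA1- cells (7 pairs) none of the members passed, and 0.0259% of all genes did (limma). Gates did not overlap in 0 members, beside 0.523% of all genes. The median change was 0.13 beside 0.0048 over all genes, and 32 of 42 estimates were positive. Members at an unadjusted p below 0.05 were Orc4 (0.30, higher in 5 of 7 pairs) and Rrm1 (-0.36, higher in 2 of 7 pairs), both with an adjusted p of 0.457, and these are 4.76% of members beside 10.4% of all genes. The direction turned without the Dppa2/4 day 4 pair, which holds the library that goes against its label: the median change was then -0.08, beside -0.0018 over all genes, 9 of 42 estimates were positive, and none of the members passed.

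In Thy1-SSEA1+ against Thy1+SSEA1- cells (4 pairs, days 8 and 14 of each arm) 32 of 42 members rose and none fell, beside 10.6% of all genes called higher and 13.5% called lower (limma). The median change was 1.15, with a range of -0.15 to 2.29, beside -0.04 over all genes tested. Gates did not overlap in 17 members, beside 21% of all genes. Mcm10 rose most, with 50.02 and 29.5 FPKM on days 8 and 14 in Dppa2/4 Thy1-SSEA1+ cells and 83.4 and 50.3 FPKM in control ones, against 22.7 and 8.34 FPKM in Dppa2/4 Thy1+SSEA1- cells and 9.07 and 4.21 FPKM in control ones (2.29 ± 0.40 SE, adjusted p 0.017). The lowest Thy1-SSEA1+ value lay above the highest Thy1+SSEA1- value. By role the members called were 5 of 6 MCM genes (Mcm5 1.80, Mcm3 1.72), 7 of 9 loading genes (Gmnn 1.85 ± 0.29 SE, adjusted p 0.0148; Orc1 1.69), 3 of 5 activation genes (Mcm10, Gins1 1.85), 6 of 8 polymerase genes (Prim1, the catalytic primase subunit, 1.78; Pole2 1.55), 5 of 6 clamp and loader genes (Rfc5 1.48, Rfc4 1.18), 3 of 3 RPA genes (Rpa2 1.13, Rpa3 0.92), 1 of 2 lagging strand genes (Lig1 1.16) and 2 of 3 dNTP genes (Rrm2 1.73, Tyms 1.01). Rrm1 stood at 108 ± 30.7 FPKM in Thy1-SSEA1+ and 117 ± 17.7 FPKM in Thy1+SSEA1- cells (SD, n = 4 each; -0.15, adjusted p 0.587). Gins2 (0.28, adjusted p 0.609), Orc3 (0.38, adjusted p 0.213) and Orc4 (0.43, adjusted p 0.177) did not pass either.

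Of 34 other replication genes 23 rose in this step, among them the nuclease-helicase Dna2 (1.90), the kinase activator Dbf4 (1.82), the origin-firing factor Ticrr (1.81) and Chaf1b (1.68), and Pold4, a small subunit of polymerase delta, fell (-1.64, adjusted p 0.023). Among 12 regulators 4 rose, led by cyclin A2, Ccna2 (1.67), cyclin E1, Ccne1 (1.40) and E2f8 (1.19). All 6 proliferation markers rose, with a summed level of 534 to 771 FPKM in Thy1-SSEA1+ and 206 to 434 FPKM in Thy1+SSEA1- libraries. All 8 pluripotency markers and 4 of 6 epithelial markers rose too, and 9 of 10 fibroblast markers fell, from lists that hold genes of the sort itself. The number of calls changed with the pairs and the filter on low values: 1 member was called without the control day 8 pair, 3 without the control day 14 pair, 20 without the Dppa2/4 day 8 pair, and none without the filter. The mean change over members without 1 pair stayed between 0.96 and 1.33.

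In Thy1-SSEA1+ against Thy1-SSEA1- cells (5 pairs) 31 members rose and none fell, beside 9.55% of all genes called higher and 12.4% called lower (limma). The median was 0.83, with a range of -0.10 to 1.44, beside 0.01 over all genes, and gates did not overlap in 6 members, beside 9.12% of all genes. Mcm5 changed most, with 104, 30.6 and 29.5 FPKM on days 8, 11 and 14 in Dppa2/4 Thy1-SSEA1+ cells and 136 and 117 FPKM on days 8 and 11 in control ones, against 44.3, 8.51 and 13.5 FPKM in Dppa2/4 Thy1-SSEA1- cells and 57.2 and 30.1 FPKM in control ones (1.44 ± 0.16 SE, adjusted p 0.00495). Each pair differed in the same direction, although the gates overlapped across days. All 6 MCM genes (Mcm3 1.37), all 8 polymerase genes (Prim1 1.21, Pold1 1.13), all 3 RPA genes (Rpa2 0.89, Rpa1 0.64) and both lagging strand genes (Lig1 0.95, Fen1 0.84) rose. So did 6 of 9 loading genes (Gmnn 1.197, Orc1 1.17), 2 of 5 activation genes (Mcm10 1.41, Gins1 1.33), 2 of 6 clamp and loader genes (Rfc5 1.19, Rfc1 0.62) and 2 of 3 dNTP genes (Rrm2 1.23, Tyms 0.61). Orc4 (-0.10), Rrm1 (0.11) and Orc3 (0.19) were at adjusted p of 0.712, 0.577 and 0.407.

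Of the other replication genes 24 of 34 rose in that comparison, led by Timeless (1.44), Ticrr (1.33), Chtf18, of the same clamp loader as Chtf8 (1.33), and Chaf1b (1.21), and 4 of 12 regulators rose (Ccna2 1.06, E2f8 1.05, Ccne1 0.97). The proliferation markers, 6 of 6 higher, summed to 499 to 771 FPKM in Thy1-SSEA1+ and 192 to 453 FPKM in Thy1-SSEA1- libraries. All 8 pluripotency and 4 of 6 epithelial markers rose, and all 10 fibroblast markers fell, with a sum of 194 to 764 FPKM in Thy1-SSEA1+ and 1403 to 2072 FPKM in Thy1-SSEA1- libraries. Their part in the members' change was not tested. Without the block of arm and day 3 of the 31 members were called, and 18 and 17 without the control day 8 and day 11 pairs.

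In GFP+ against Thy1-SSEA1+ cells (5 pairs) 35 members rose and none fell, beside 19.5% of all genes called higher, 25.9% called lower and 45.4% in either direction (limma). The median was 0.78, with a range of -0.20 to 1.36, beside -0.06 over all genes, and gates did not overlap in 16 members, beside 17.6% of all genes. Orc1 changed most, with 32.5, 30.0 and 42.4 FPKM on days 8, 11 and 14 in Dppa2/4 GFP+ cells and 54.2 and 36.2 FPKM on days 11 and 14 in control ones, against 13.7, 8.74 and 7.75 FPKM in Dppa2/4 Thy1-SSEA1+ cells and 26.1 and 23.7 FPKM in control ones (1.36 ± 0.24 SE, adjusted p 0.00617). All GFP+ values lay above all Thy1-SSEA1+ values. Called members were 6 of 6 MCM genes (Mcm3 1.14, Mcm5 1.07), 7 of 9 loading genes (Orc1, Cdt1 1.02), 5 of 5 activation genes (Gins1 1.18, Mcm10 1.04), 8 of 8 polymerase genes (Pole2 1.16, Prim1 0.93), 4 of 6 clamp and loader genes (Rfc5 1.01, Pcna 0.76), 2 of 3 RPA genes (Rpa1 0.81, Rpa2 0.72), 1 of 2 lagging strand genes (Lig1 1.14) and 2 of 3 dNTP genes (Tyms 0.82, Rrm2 0.75). The lowest adjusted p was that of Orc5 (0.93 ± 0.10 SE, adjusted p 0.00144).

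Rrm1 did not pass: it was lower in 5 of 5 pairs, at 86.5 ± 18.0 FPKM in GFP+ and 99.5 ± 20.4 FPKM in Thy1-SSEA1+ cells (SD, n = 5 each; -0.20, adjusted p 0.104), and it passed with quantile normalization (-0.28, adjusted p 0.036). Its partner Rrm2 stood at 318 ± 85.3 FPKM in GFP+ and 197 ± 87.0 FPKM in Thy1-SSEA1+ cells. The other members not called were Fen1 (0.54, adjusted p 0.0524), Rfc2 (0.45), Rpa3 (0.21), Orc3 (0.09), Orc4 (0.08) and Rfc3 (-0.02, positive with median ratio scaling and with the GC correction). Of other replication genes 20 of 34 rose, led by Ticrr (1.27), the polymerase epsilon subunit Pole4 (1.25), Chaf1b (1.23) and Rnaseh2b (1.09), and Pold4 fell (-0.80). Of the regulators 5 rose, among them Ccne1 (1.06) and E2f8 (1.02), and 2 fell, Rb1 (-1.50, adjusted p 0.00104) and Rbl2 (-0.51, adjusted p 0.046). Proliferation markers rose in 3 of 6 cases and summed to 709 to 842 FPKM in GFP+ and 499 to 686 FPKM in Thy1-SSEA1+ libraries. The 3 comparisons with Thy1-SSEA1+ cells share libraries of that gate, with the Dppa2/4 libraries of days 8 and 14 in all of them, so they are not independent of each other. In GFP+ cells 7 of 8 pluripotency markers rose, and 9 of 10 fibroblast and 4 of 6 epithelial markers fell. The fibroblast markers summed to 196 to 351 FPKM in GFP+ and 252 to 943 FPKM in Thy1-SSEA1+ libraries, and the epithelial markers to 280.1 to 329 FPKM in GFP+ and 369.96 to 868 FPKM in Thy1-SSEA1+ libraries, with none at 0 in all libraries, and their part in the members' change was not tested.

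**Figure D5:**
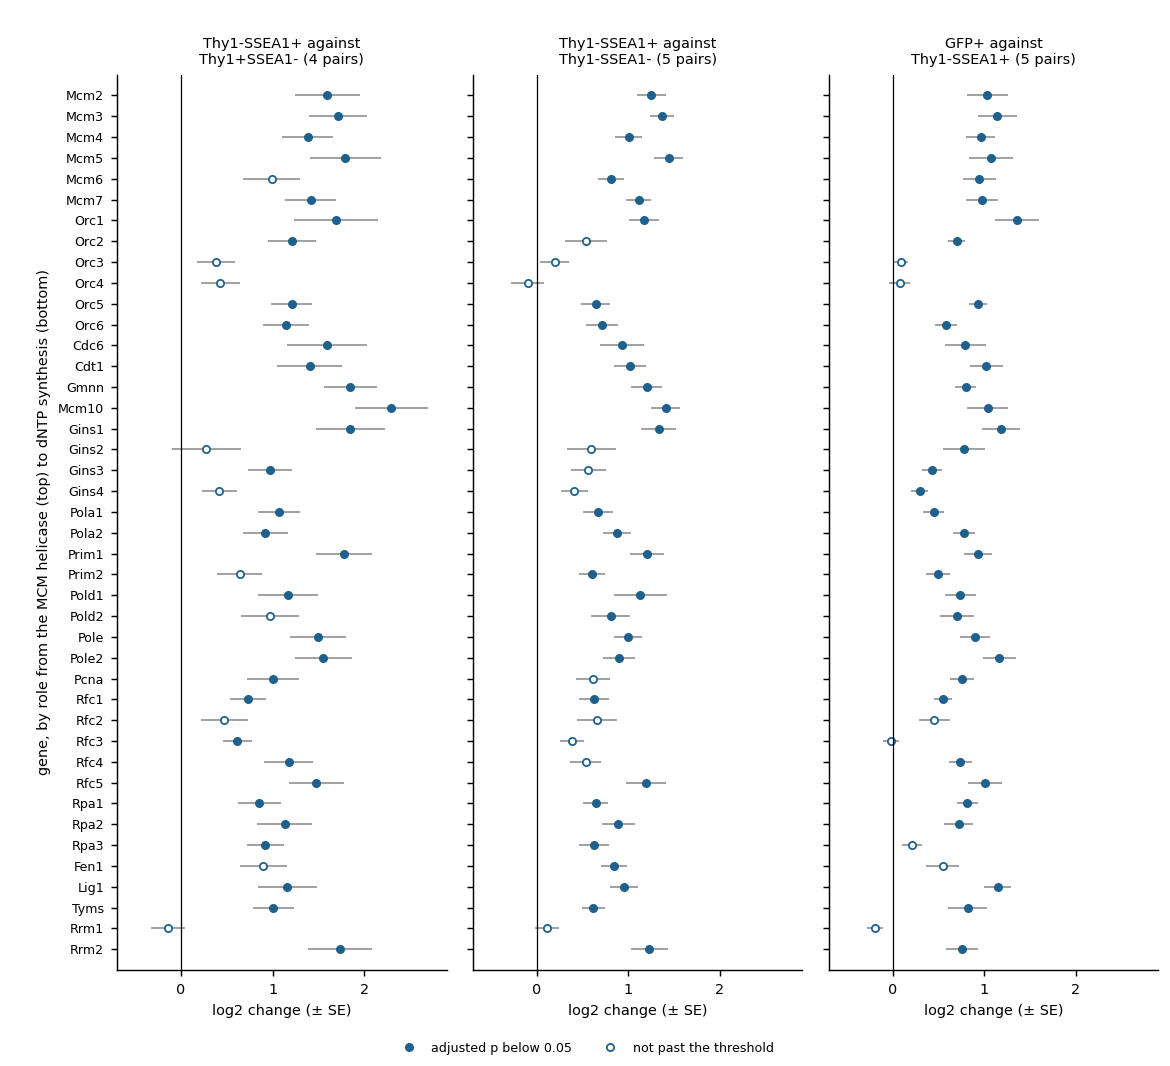
Change of each of the 42 genes on the log2(FPKM + 1) scale with its standard error, for Thy1-SSEA1+ against Thy1+SSEA1- (4 pairs), Thy1-SSEA1+ against Thy1-SSEA1- (5 pairs) and GFP+ against Thy1-SSEA1+ (5 pairs); filled points have an adjusted p below 0.05. Filled points number 32, 31 and 35, all right of 0, while Orc3, Orc4, Rfc2 and Rrm1 have unfilled points in each panel.

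Change per day was fitted within a gate, with the arm as a term. In Thy1+SSEA1- cells, over 8 libraries, none of the members passed and 9 had an unadjusted p below 0.05 (limma), beside 0.8% of all genes called lower, 1.3% higher and 2.1% in either direction. At the unadjusted threshold the members' share was 21.4%, beside 25.5% of all genes. Estimates were negative in 41 of 42 members, with a median of -0.07 log2 units per day beside 0.01 over all genes, and the lowest adjusted p were those of Orc2 (-0.10, 0.0881) and Tyms (-0.15, 0.0991). Tyms stood at 107, 27.5, 70.1 and 19.8 FPKM on days 2, 4, 8 and 14 in the Dppa2/4 arm, the second value from the library that goes against its label, against 132, 75.7, 42.4 and 31.7 FPKM in the control arm. The control series was lower on each later day and the Dppa2/4 series was not. With the library labelled Dppa2/4 day 4 Thy1+SSEA1- left out, 20 members (47.6%) passed as falling, beside 7.41% of all genes called lower in that fit, among them all 6 MCM genes (Mcm5 -0.17 per day, adjusted p 0.013; Mcm4 -0.15), Orc2 (-0.12), Orc6, Cdc6, Mcm10 (-0.17), Gins1, Gins3, Pola1 (-0.23, adjusted p 0.013), Prim1, Pole, Pole2, Pcna, Fen1, Tyms (-0.18, adjusted p 0.012) and Rrm2 (-0.18). Of other replication genes, topoisomerase 1, Top1, fell with all libraries, the one that goes against its label included (-0.11, adjusted p 0.0496).

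In Thy1-SSEA1- cells, over 9 libraries, no member passed and 7 had an unadjusted p below 0.05 (limma), beside 1.09% of all genes called lower and 2.77% in either direction. The unadjusted count is 16.7% of members, beside 22.9% of all genes. Pola1 (-0.10 log2 units per day, adjusted p 0.0655) and Gins2 (-0.13, adjusted p 0.0937) came nearest. Pola1 stood at 24.5, 37.2, 19.8, 12.9 and 11.1 FPKM on days 2, 4, 8, 11 and 14 in the Dppa2/4 arm, against 18.7, 24.1, 14.8 and 13.5 FPKM on days 2, 4, 8 and 11 in the control arm. Both series peaked on day 4. E2f8, an E2F-family repressor, fell (-0.13, adjusted p 0.0497).

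In Thy1-SSEA1+ cells, over 6 libraries of days 8, 11 and 14, none of the members passed and 11 had an unadjusted p below 0.05 (limma), and 0% of all genes were called. The unadjusted count is 26.2% of members, beside 24.4% of all genes. Fen1 had the lowest p (-0.22 ± 0.05 SE log2 units per day, adjusted p 0.0791), at 36.3, 15.1 and 10.1 FPKM on days 8, 11 and 14 in the Dppa2/4 arm, against 47.9, 37.6 and 24.8 FPKM in the control arm. Pcna came next (-0.17, adjusted p 0.0956), and 38 of 42 estimates were negative. With the GC correction Fen1 (-0.26, adjusted p 0.037), Pcna (-0.20, adjusted p 0.046) and Mcm4 (-0.20, adjusted p 0.049) passed.

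The last comparison set day 2 OSKM cells of the Thy1+SSEA1- and Thy1-SSEA1- gates (4 libraries) beside the 2 rtTA-MEF libraries, which were given no gate in the labels. None of the members passed and 2 had an unadjusted p below 0.05 (limma, lowest adjusted p 0.911), beside 0.0483% of all genes called. The unadjusted count is 4.76% of members, beside 3.74% of all genes. Estimates were negative in 40 of 42 members, with a median of -0.48 beside 0.03 over all genes, and groups did not overlap in 12 members, beside 12.3% of all genes. Rrm1 stood at 104 and 74.9 FPKM in Dppa2/4 Thy1+SSEA1- and Thy1-SSEA1- cells and 162 and 79.5 FPKM in control ones, against 168 FPKM in the Dppa2/4 and 208 FPKM in the control rtTA-MEF library (-0.89 ± 0.35 SE). Each rtTA-MEF value lay above all 4 OSKM values. Gins4 (-0.79 ± 0.27 SE) was the other member at an unadjusted p below 0.05, and its groups did not overlap either. The gate was not matched here, and the 2 rtTA-MEF libraries had the lowest depth. Title and description of the rtTA-MEF samples differ on the day, so the day may not be matched either.

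Within the rtTA-MEF pair, Dppa2 stood at 4443 FPKM in the Dppa2/4 and 1.53 FPKM in the control library, and the members showed no common shift: 21 were higher and 21 lower, with a mean difference of 0.01. Orc1 had the widest difference, at 24.3 FPKM in the Dppa2/4 and 5.38 FPKM in the control library, and Pole2 stood at 10.8 and 21.4 FPKM. With 1 library per arm these differences have no replicate check.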

How the data were processed

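PolyA RNA was sequenced in sorted or unsorted mouse cells, 1 library per arm, day and gate. The deposited table gives FPKM per gene, made by the authors with TopHat2 and Cuffdiff on mm10, per the submitters' processing notes, with versions and strand setting not given in the sources used here. FPKM is scaled by length and library total, so a few abundant transcripts can shift all other values. Columns were matched to samples by name, 32 of 33 were used, and 1 matched no sample. The rtTA-MEF columns were the ones left with no gate, and these samples' title and description differ on the day.

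Values were taken to log2(FPKM + 1). Genes at 1 FPKM in at least 2 libraries of a comparison were fitted with limma 3.58.1 in R 4.3.3 (eBayes with a trend, two-sided), with p-values adjusted over all genes tested by Benjamini-Hochberg and a threshold of 0.05. A fold change on this scale understates that of low genes. Tables were made with Python 3.11.15, pandas 2.3.3 and numpy 2.4.6, and the fits were tested on simulated data. Stratum, or arm and day, was a block where groups were matched. Libraries of the same day and gate deviated together, with correlations of 0.209 to 0.757 over the 13 strata. Gene models were those of GENCODE vM21, joined by gene ID.

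The 42 members and all gene and marker lists were chosen with earlier results of these data known. Any member could be named, with up to 2 per role among those past the threshold by size of change, up to 4 other replication genes and 3 regulators. Chtf8, Donson, Pold4 and, against Thy1-SSEA1+, Rbl2 were named after their values were seen. Alternatives were another pseudocount (0.1), no filter, a mean of 5 FPKM, quantile and median ratio scaling, eBayes without a trend, no block, each stratum, pair or library left out, and, chosen after seeing the data, a correction for transcript GC content and the loss of the day 11 Thy1-SSEA1- stratum. The GC correction took from each library the median deviation of genes of like transcript GC content.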

Additional observations from a re-analysis of the deposited data

How the results depend on the processing

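With Dppa2/4 against control, 7 members were called lower. The count was 2 without a filter on low values, 2 with quantile normalization, 11 with the GC correction, 0 with no replicate block of day and gate, 3 leaving out the Dppa2/4 day 4 Thy1+SSEA1- library, 3 without the control day 11 GFP+ library, 3 without day 2 and 1 without the day 11 Thy1-SSEA1- stratum. Leaving out 1 stratum gave 1 to 11. The difference by gate class went to 1 call leaving out that Dppa2/4 day 4 library (0 to 1 leaving out a stratum). Thy1-SSEA1+ against Thy1+SSEA1- gave 0 of 32 calls without a filter and 1 to 23 leaving out a pair. Thy1-SSEA1+ against Thy1-SSEA1- gave 3 of 31 with no replicate block of arm and day and 17 to 28 leaving out a pair. GFP+ against Thy1-SSEA1+ gave 22 of 35 with no replicate block and 27 to 35 leaving out a pair. Change per day gave 20 calls in Thy1+SSEA1- cells leaving out the same library (0 to 20 leaving out a library) and 3 in Thy1-SSEA1+ cells with the GC correction. The cause was not tested. The other comparisons stayed at 0 calls, but without the library that goes against its label the members' mean change turned to -0.08 in Thy1-SSEA1- against Thy1+SSEA1- and to -0.15 in the arm effect of days 8 to 14 against days 2 and 4. No called gene reversed its direction in the alternatives run. Depth is unknown beyond what the values imply, and no cell of the design has a second library.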

Other observations

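Thy1+SSEA1+ libraries of the Dppa2/4 arm have no control beside them and enter no comparison. On days 2 and 4 they had 8.21 and 9.51 FPKM of Pole2, 67.0 and 85.3 FPKM of Mcm5, 83.7 and 91.6 FPKM of Rfc5, 97.5 and 113 FPKM of Tyms, and 73.8 and 48.0 FPKM of Orc4. Pola1, the catalytic subunit of polymerase alpha, stood at 113 FPKM on day 2 and 46.9 FPKM on day 4. Dppa2/4 GFP+ cells of day 8, which have no control of that day beside them, held the highest level of any library for Pole2 (30.8 FPKM), Gmnn (166 FPKM), Gins1 (69.2 FPKM) and Rrm2 (430.2 FPKM).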
